A study of Rattus norvegicus with 18 samples.

Results

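The genes described here carried far more reads in the rat prelimbic cortex (PL), part of the medial prefrontal cortex, than in the dorsal hippocampus (dHC), and were chosen by their level, this regional difference and a small change 1 h after training. They number 86 of the 32662 genes in the deposited tables. Levels are given in CPM, the count of a gene scaled to a common library total, and L denotes log2 of a group mean in CPM plus 0.5. A gene was kept when its mean in naive PL was 5 CPM or more, when L was higher by 2 or more in naive PL than in naive dHC, and when L at 1 h after training differed from L in naive rats by less than 0.3 in either region. Among the 11373 genes at 5 CPM or more in naive PL, another 55 met the regional criterion but were outside the window at 1 h. Of the 55, 29 were outside it in dHC alone, 20 in PL alone and 6 in both. The choice also left out 8 gene IDs, 0 of which met the level and regional criteria. The naive regional difference and the change at 1 h therefore chose these genes and are given below as descriptions, without a test.

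The prelimbic cortex is a layered neocortical area that works with the hippocampus in the storage and recall of aversive memories. The dorsal hippocampus is a simpler, folded cortex in which new episodic memories are first encoded. The neurons of neocortex and hippocampus share a glutamatergic identity but differ in some of the transcription factors, ion channels, receptors and adhesion molecules that they express, and such lasting regional programmes are distinct from the brief induction of activity-dependent genes that follows learning. The tables give Ensembl gene IDs without names, and the RefSeq gene table at hand, made for assembly GRCr8, held 0 of the 32662 IDs. Names, functions, positions and promoter sequences of the 86 genes are therefore not given, and the labelled tissues were not checked against marker genes.

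The animals were adult Long-Evans rats, an outbred strain. Naive rats stayed in the home cage, and trained rats learned inhibitory avoidance, in which an animal learns to avoid a place where it was shocked, and were killed 1 h or 6 d later. RNA from frozen tissue punches of 5 rats was combined in each pool, and there were 3 pools, described by the submitters as independent, for each condition in each region. The labels number the libraries consecutively by group, so that any effect of the order of handling and the group cannot be told apart. In pooled tissue, fewer cells of a type and less RNA per cell cannot be told apart.

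Libraries held between 7463875 and 9215695 reads counted in genes. At these depths 3 reads, the limit taken for a gene without reads, equal 0.326 to 0.402 CPM, which covers counting error only. The share of reads aligned outside gene models was 12.2% to 13.6% in PL at 6 d and 10.1% to 11.8% in dHC at 6 d, without overlap, whereas the ranges overlapped in naive pools (11.2% to 12.6% in PL, 10.1% to 12.4% in dHC). The share of reads not aligned was 42.0% to 48.4% in PL at 6 d and 48.5% to 49.9% in dHC at 6 d, also without overlap. In naive pools it overlapped (45.2% to 47.7% in PL, 44.3% to 51.8% in dHC). The part of either share in the regional results was not tested.

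In naive PL the 86 genes had a median level of 50.0 CPM, from 5.38 to 930 CPM, with quartiles of 17.8 and 94.3 CPM. CPM are not corrected for transcript length, so that the order of the genes is an order of reads and not of transcript molecules. In naive dHC the median was 5.86 CPM, from 0.0434 to 198 CPM. In that region 38 of the 86 genes lay under 5 CPM and 13 under 1 CPM, while 18 stayed at 20 CPM or more. The lowest count of any of these genes in a naive PL pool was 42 reads. In naive dHC, 4 of the genes had 3 or fewer counts in every pool, and none had 0 counts in all of its pools. The genes were thus well counted in PL, and a part of them was near the counting limit in dHC.

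Added together, the genes accounted for 0.808% to 0.833% of all gene counts in naive PL and for 0.125% to 0.129% in naive dHC. Their summed level averaged 8172 CPM in naive PL (8076 to 8326 CPM, n = 3) and 1276 CPM in naive dHC (1252 to 1290 CPM, n = 3). The ratio of these means was 6.41. A few genes carried much of the sum. The 3 genes with the most reads in naive PL held 30.9% to 32.3% of it in the PL pools and 31.8% to 35.3% in the dHC pools, and the 10 with the most reads held 53.2% to 54.7% and 50.2% to 53.7%.

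The summed level at 1 h was 7906, 8042 and 7974 CPM in the 3 PL pools, against 8326, 8076 and 8114 CPM in the naive ones. All 3 pools at 1 h thus lay below all 3 naive pools, with a mean lower by 2.42%, within a window that the choice of genes had itself narrowed. At 6 d, which the choice did not use, the PL pools stood at 8259, 8101 and 8187 CPM, overlapping the naive range, with a mean higher by 0.129%. In dHC the sums were 1285, 1252 and 1290 CPM in naive pools, 1267, 1244 and 1302 CPM at 1 h, and 1212, 1233 and 1315 CPM at 6 d. The 3 conditions overlapped in dHC. The ratio of the mean sums, PL over dHC, was 6.41 in naive rats, 6.27 at 1 h and 6.53 at 6 d.

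**Figure D1:**
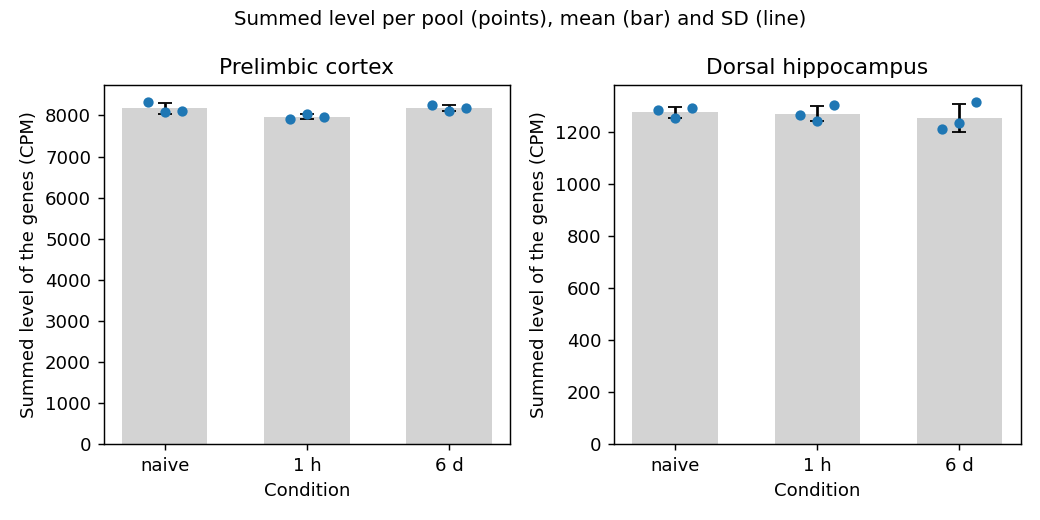
Summed level of the 86 genes in CPM (vertical axes, starting at 0 and scaled separately for each region) by condition, with each pool as a point, the group mean as a bar and the SD of 3 pools as a line. PL pools lie between 7906 and 8326 CPM and dHC pools between 1212 and 1315 CPM in all 3 conditions.

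The naive regional difference, PL minus dHC on the L scale, had a median of 2.69 and ran up to 5.41. It lay between 2 and 3 for 56 genes, between 3 and 4 for 25 and above 4 for 5. The genes with the larger differences had fewer reads in both regions. Those between 2 and 3 had median levels of 64.9 CPM in naive PL and 11.3 CPM in naive dHC, those between 3 and 4 had 33.7 and 2.70 CPM, and the 5 above 4 had 18.9 and 0.156 CPM. Where the dHC level is under 0.5 CPM, the pseudocount limits the difference that L can show. The genes closest to the threshold of 2 stood at 2.001 and 2.003 inside it and at 1.999 and 1.996 outside it. For the level in naive PL the nearest values were 5.38 and 5.63 CPM inside and 4.94 and 4.88 CPM outside, and for the larger change at 1 h they were 0.298 and 0.298 inside and 0.301 and 0.301 outside. The margins are narrow against the spread between pools, whose median SD on the log2 scale was 0.13 in naive PL and 0.19 in naive dHC for these genes.

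At 1 h the regional difference had its median at 2.55 and ran from 1.84 to 5.55, and 7 of the 86 genes were under 2. The change in PL from naive to 1 h ran from −0.30 to 0.24 with a median of −0.07, below 0 for 55 genes and above 0 for 31. In dHC it ran from −0.30 to 0.29 with a median of 0.01, below 0 for 40 and above 0 for 46. The bounds of these ranges were set by the choice of genes.

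The pools killed at 6 d took no part in the choice of genes, and the question there was whether the regional difference recurred in them. It did for each of the 86 genes. All 86 were tested and all 86 were called higher in PL than in dHC (edgeR quasi-likelihood test, adjusted p of at most 1.68e-06), where 22.8% of the 14784 genes tested were called in that direction. Of the 86, 14 did not pass the filter on low counts within dHC and were tested here through their level in PL. The other 72 passed it in dHC as well, and their median log2 difference was 2.67, against 4.27 for the 14. For all 86 genes together the median log2 difference was 2.82, and it was 0.00 over all genes tested. Estimates ran from 1.49 to 6.65, with a median standard error of 0.15. The estimate was 2 or more for 84 of the 86 genes, as for 1.93% of all genes tested. The lower bound of the 95% interval was above 1 for all 86 genes and above 2 for 66 of them.

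The same held pool by pool, with the 14 genes tested through their level in PL again included. At 6 d the lowest PL pool lay above the highest dHC pool for all 86 genes, as it did for 25.9% of the genes tested. The gap between these pools had a median of 2.36 on the log2(CPM + 0.5) scale, and the smallest gap was 0.92. The 55 genes that had met the same level and regional criteria but were outside the window at 1 h were likewise all called higher in PL at 6 d, with a median log2 difference of 2.88. Of the 55, 44 passed the filter on low counts within dHC, and the others were tested through their level in PL. These 55 genes had fewer reads, with a median of 24.8 CPM in naive PL and 3.05 CPM in naive dHC. The regional difference at 6 d was thus not particular to the genes inside the window.

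The sizes of the regional difference in naive rats and at 6 d are set side by side here as a description, since the naive values chose the genes and were selected to be large. On the L scale the difference ran from 1.41 to 5.29 at 6 d around a median of 2.70. The shift from naive to 6 d had a median of 0.01 and ran from −0.76 to 0.67, with a larger difference at 6 d for 44 genes and a smaller one for 42. At 6 d, 5 of the 86 genes were under the threshold of 2 that they had passed in naive rats. Of the 56 genes between 2 and 3 in naive rats, 49 were so again at 6 d, as were 20 of the 25 between 3 and 4. Each of the 5 genes above 4 had a smaller difference at 6 d, with a median shift of −0.13. The values in naive rats and at 6 d came from different pools, and over the 86 genes Pearson's r between them was 0.93 and Spearman's rho 0.91. These describe genes of the same libraries, which are not independent replicates.

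**Figure D2:**
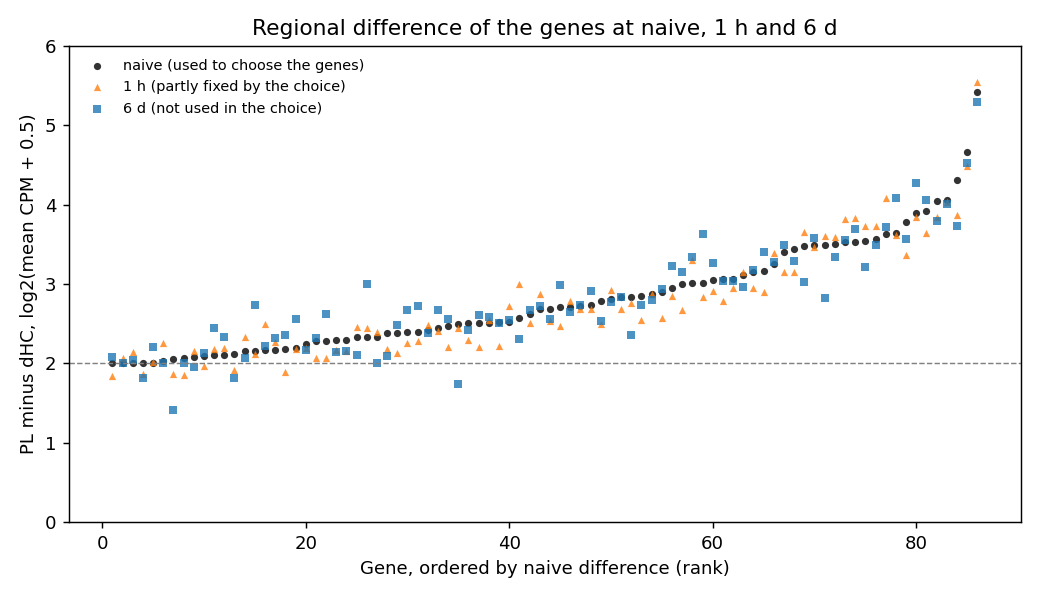
Regional difference, PL minus dHC in log2(mean CPM + 0.5), for each of the 86 genes, ordered by the naive value, at naive (circles), 1 h (triangles) and 6 d (squares), with the threshold of 2 as a dashed line. The values at 6 d follow the naive ones over the whole range, from 1.41 to 5.29, and 5 genes lie below the line.

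Within PL, 6 d was then compared with naive. The naive pools also served to choose the genes, so that only the 6 d side of this comparison is independent of the choice. All 86 genes were tested and 0 were called by edgeR, where 0.0% of the 14318 genes tested were called. At an unadjusted p under 0.05 there were 3 of the 86, of which 2 were higher and 1 lower at 6 d, against 3.47% of all genes tested. DESeq2 and limma voom also called 0 of the 86, with 2 (2.33%) and 5 (5.81%) at an unadjusted p under 0.05, where 1.52% and 3.45% of all genes were. The median log2 fold change was −0.02, and −0.00 over all genes tested. Estimates ran from −0.34 to 0.75 with a median standard error of 0.10. The 95% interval lay within 0.5 in either direction for 73 of the 86 genes (84.9%) and within 1 for 85 of them, where 73.3% and 93.4% of all genes tested did so.

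On the L scale, 83 of the 86 genes stayed within 0.3 of their naive level in PL at 6 d, the window that had been applied at 1 h. The other 3 (3.49%) were outside it, as were 1.65% of the genes at 5 CPM or more in naive PL. The median size of the change was 0.07 for these genes and 0.06 for the larger set. It was 0.14 for the 26 genes under 20 CPM in naive PL, against 0.10 in the larger set, and 0.05 for the 60 at 20 CPM or more, against 0.05. Outside the window were 1 of the 26 (3.85%), against 4.70% of the larger set at that level, and 2 of the 60 (3.33%), against 17 of 7731 (0.220%). The 6 d pools lay wholly above the naive pools for 2 of the 86 genes and wholly below for 0, together 2.33%, where 7.75% of the genes at 5 CPM or more were without overlap in either direction.

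The PL pool numbered 1 at 6 d stood slightly above the other 2 for these genes. In it, 53 of the 86 genes (61.6%) were above their group mean, with a median deviation of 0.05, while only 42.0% of the genes at 5 CPM or more were above theirs. Without this pool, 22 of the 86 genes (25.6%) had an unadjusted p under 0.05 against naive in PL, where 10.8% of all genes then tested did, and 0 were called. The median log2 fold change was then −0.06.

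Within dHC, where these genes are low, 72 of the 86 passed the filter on low counts and 14 did not. The naive dHC pools also served to choose the genes. Only the 6 d side of the comparison with naive is therefore independent of the choice. None of the 72 was called at 6 d against naive by edgeR, where 0.0% of the 14305 genes tested were called. An unadjusted p under 0.05 was found for 5 of the 72, with 2 higher and 3 lower at 6 d, against 5.62% of all genes tested. DESeq2 and limma voom called 0, with 3 (4.17%) and 6 (8.33%) at an unadjusted p under 0.05, where 2.96% and 5.62% of all genes were. With the replicate number as a block in edgeR, 9 of the 72 (12.5%) were at this level, where 7.27% of all genes were. That run called 0 of the 72 and 3 of the 14305 genes tested. Without the block, the median log2 fold change by edgeR was −0.01, with estimates from −0.86 to 0.66 and a median standard error of 0.17. The 95% interval lay within 0.5 for 35 of the 72 genes (48.6%) and within 1 for 63 of them (87.5%), where 72.2% and 93.4% of all genes tested did so. In the dHC pool numbered 3 at 6 d, 54 of the 86 genes (62.8%) were above their group mean, against 47.2% of the genes at 5 CPM or more in naive PL. Without this pool, 12 of 73 genes tested (16.4%) had an unadjusted p under 0.05, where 8.06% of all genes then tested did, and 0 were called. The dHC pool numbered 1 at 6 d stood the other way, with 33 of the 86 genes (38.4%) above their group mean, against 58.3%. Without pool 1, 6 of 74 genes tested (8.11%) had an unadjusted p under 0.05, where 7.69% of all genes then tested did.

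The same window of 0.3 left 18 of the 86 genes (20.9%) outside it in dHC at 6 d, with 11 higher and 7 lower, where 2.29% of the genes at 5 CPM or more in naive PL were outside. This share was larger at lower levels in dHC. Under 5 CPM in naive dHC, 13 of 38 genes (34.2%) were outside the window, against 65 of 333 (19.5%) of the larger set, whose median level there was 3.64 CPM and that of the 38 genes 1.37 CPM. From 5 to under 20 CPM, 5 of 30 (16.7%) were outside, against 5.32% of the larger set. The median levels there were close, 10.8 CPM for the 30 genes and 11.7 CPM for the larger set. At 20 CPM or more 0 of 18 were outside, against 0.331%. How far the level accounts for the larger share among the 86 genes was not tested. The median spread between dHC pools at 6 d was an SD of 0.21 on the log2 scale for the 86 genes, and 0.11 for all genes at 5 CPM or more in naive PL. The 6 d and naive pools did not overlap for 10 of the 86 genes (11.6%), 3 of them higher and 7 lower, where 9.65% of the larger set did not overlap. The naive side of these dHC comparisons took part in the choice of genes.

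**Figure D3:**
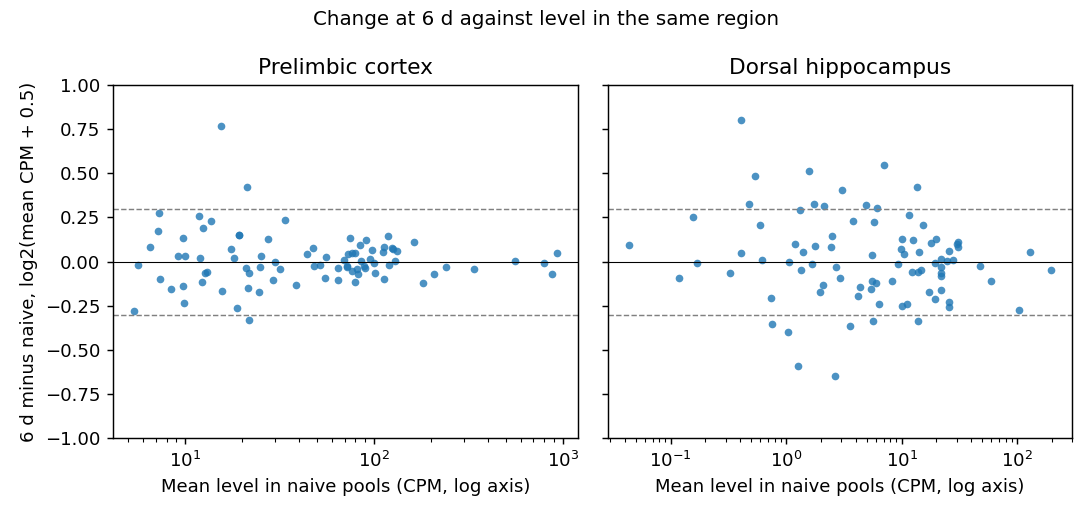
Change from naive to 6 d in log2(mean CPM + 0.5) (vertical axis) against the mean level in naive pools of the same region in CPM (horizontal log axis), 1 point per gene, with dashed lines at 0.3 in either direction. In PL 83 of the 86 genes lie between the lines, and in dHC 68 do. The points outside the lines in the dHC panel lie below 20 CPM.

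The difference between the regions in the 6 d change was fitted for all 86 genes, of which 14 did not pass the filter within dHC and entered through their level in PL. The median standard error was 0.62 for these 14 genes and 0.19 for the other 72. None was called by edgeR, where 0.0% of the 14784 genes tested were called, nor by DESeq2 or limma voom. The naive difference that chose the genes enters this test, and choosing it to be large favours a negative value. Nothing is therefore read from the count of 0 or from the following counts. At an unadjusted p under 0.05 there were 8 of the 86 (9.30%), 6 of them more negative in PL than in dHC, where 3.77% of all genes tested were. DESeq2 had 8 and limma voom 7 at this level, where 2.06% and 3.75% of all genes were. The median was −0.01 for the 86 genes, and the 95% interval lay within 0.5 for 28 of them (32.6%) and within 1 for 62 (72.1%), where 55.1% and 81.5% of all genes tested did so.

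The 3 genes given by ID stood at the ends of these ranges. ENSRNOG00000030111 had the largest fitted difference between the regions at 6 d. Its level was 27.9, 31.2 and 23.3 CPM in the naive PL pools, 24.2, 30.1 and 30.3 CPM at 1 h, and 28.5, 31.5 and 30.4 CPM at 6 d. In dHC it had 0 to 3 reads per pool in naive rats, 0 to 2 at 1 h and 1 to 4 at 6 d, summing to 4, 3 and 7 reads. Every PL pool lay far above every dHC pool, and the PL conditions overlapped. The log2 difference at 6 d was 6.65 (SE 0.28, 95% interval 6.09 to 7.22, edgeR adjusted p = 3.90e-17), a size that depends on few reads in dHC. Between 6 d and naive in PL its log2 fold change was 0.11 (SE 0.11, edgeR adjusted p = 0.999), and it was not tested within dHC.

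The smallest difference at 6 d belonged to ENSRNOG00000014373, which also had the most negative estimate of the 86 genes in PL at 6 d. It stood at 23.4, 19.4 and 23.1 CPM in naive PL, 23.2, 20.6 and 17.9 CPM at 1 h, and 21.3, 14.1 and 16.8 CPM at 6 d. In dHC it had 4.96, 4.55 and 5.21 CPM in naive pools, 4.94, 5.26 and 5.69 CPM at 1 h, and 7.20, 5.00 and 6.53 CPM at 6 d. The PL pools of 6 d reached lower than the naive ones but overlapped them, and the dHC pools overlapped as well. Its regional difference at 6 d was 1.49 (SE 0.17, edgeR adjusted p = 2.35e-08). The log2 fold change from naive to 6 d was −0.34 in PL (SE 0.14, edgeR adjusted p = 0.999) and 0.34 in dHC (SE 0.19, edgeR adjusted p = 0.892). The difference of these changes, −0.69, did not pass the test (SE 0.25, edgeR adjusted p = 1.000).

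The largest positive estimate in PL at 6 d was that of ENSRNOG00000048230. It had 11.7, 13.1 and 22.0 CPM in naive PL, 10.4, 22.2 and 16.1 CPM at 1 h, and 15.9, 46.4 and 18.6 CPM at 6 d. A single pool at 6 d was high, and the other 2 lay within the naive range. In dHC the pools stood at 2.25, 2.86 and 3.96 CPM in naive rats, 1.68, 4.14 and 3.72 CPM at 1 h, and 3.91, 6.36 and 2.22 CPM at 6 d. For this gene the highest pool carried the same number in both regions, 3 in naive rats and 2 at 1 h and at 6 d. Its log2 fold change at 6 d in PL was 0.75 (SE 0.30, edgeR adjusted p = 0.999), and 0.15 without the high pool. It passed only when low-count genes were also kept (edgeR adjusted p = 5.57e-06, in a range of 5.57e-06 to 1.000 over 12 alternatives), where it was the sole gene of the 86 called. In that run 8 of the 21720 genes tested were called. The regional difference at 6 d was 2.63 (SE 0.37, edgeR adjusted p = 1.24e-06).

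**Figure D4:**
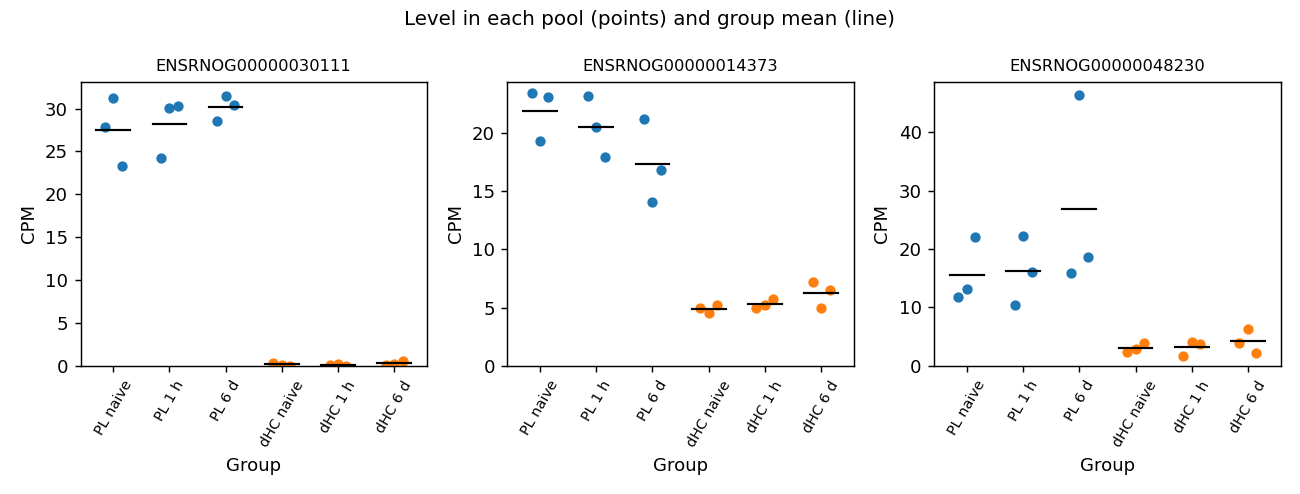
Level in CPM (vertical axes, scaled separately) of the 3 genes given by ID in each pool (points) and as the group mean (line), for PL (blue) and dHC (orange) at naive, 1 h and 6 d. Every PL pool lies above every dHC pool for each gene, and 1 PL pool of ENSRNOG00000048230 at 6 d stands at 46.4 CPM.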

How the data were processed

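The authors deposited 1 table of raw read counts per library, which lists 32662 Ensembl genes and, in 5 further rows, reads left unassigned. The unassigned reads (63.3% to 68.3% of a library's reads) stayed out of library sizes and tests. The submitters' processing notes name Rnor_6.0, Picard 1.126, bedtools 2.17.0 and DESeq2; libraries came from a stranded mRNA kit, per the labels' protocols, but no source used here gives the aligner, counter, annotation or strand setting, so overlapping, antisense and near-identical genes are uncertain.

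The count test was edgeR's quasi-likelihood test (version 4.0.16 under R 4.3.3, glmQLFTest, two-sided, TMM factors, filterByExpr), with Benjamini-Hochberg adjustment over all genes tested; an adjusted p under 0.05 is a call. Regional tests used all 18 libraries, tests within a region its 9. Standard errors derive from the F statistic. Each p-value judges a difference against the spread between pools, estimated over all groups in the fit with information shared across genes. The spread between single rats was not measured. DESeq2 1.42.0, limma 3.58.1 (voom), other settings and leaving out single libraries were alternatives.

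The genes and lists were chosen with earlier results of these data known. Genes given by ID are those with the largest and smallest regional difference at 6 d and the most positive and most negative estimate in PL at 6 d against naive among the 86; marker and functional lists could not be applied without gene names. Same-numbered naive and 6 d pools of dHC deviated together over genes (r of 0.11 to 0.30 in all 3 pairs), which comes from the data alone. In PL the pair numbered 1 did so (r = 0.33), and those numbered 2 and 3 did not (−0.05 and 0.05). Same-numbered 6 d pools of PL and dHC did not either (r from −0.26 to 0.01).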

Additional observations from a re-analysis of the deposited data

How the results depend on the processing

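The count of 86 genes called higher in PL at 6 d and the counts of 0 called for the regional difference of the 6 d change and against naive in dHC were the same in each alternative run. These were DESeq2 size factors, DESeq2, limma voom, no filter on low counts, only the groups compared, and each library of the groups compared left out. For the regional count and both counts against naive, an adjusted p under 0.1 was also tried. Of the 86 genes, 14 did not pass the filter on low counts within dHC and entered the regional tests through their level in PL. The naive difference that chose the genes enters the test for the regional difference of the 6 d change. Nothing is therefore read from that count of 0. Against naive in PL the count of 0 became 1 without a filter on low counts (ENSRNOG00000048230, log2 fold change 0.75) and was 0 otherwise. Without that filter, 8 of the 21720 genes tested in PL were called, 31 of 21581 in dHC and 12 of 22911 for the regional difference of the 6 d change. In dHC 10 of the 86 genes (11.6%) then had an unadjusted p under 0.05, where 5.42% of all genes did. With the replicate block the counts were 86, 0, 0 and 0, and the medians 2.83 (PL minus dHC at 6 d), −0.02 (PL) and −0.01 (dHC). The block changed no call among the 86 genes. Over all genes tested it called 3 of 14305 against naive in dHC, where the main test called 0. The median in PL ran from −0.060 (without the 6 d pool 1) to 0.0080 over the pools left out. The log2 fold change of ENSRNOG00000030111 in PL ran from −0.0043 (without naive pool 3, a change of sign) to 0.21. A window of 0.2 in place of 0.3 held 88.4% of the genes in PL and 61.6% in dHC at 6 d, and a window of 0.5 held 94.2% in dHC; a narrower window holds fewer by construction.

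The choice itself gave 80 to 92 genes when each naive or 1 h library was left out, of which 72 to 85 were among the 86. It gave 84 with a pseudocount of 1 and 87 with TMM-scaled CPM, sharing 78 and 85. Depth limits mainly dHC, where 14 of the 86 genes were too low to be tested. Groups of 3 pools were too small to be screened for outlying samples.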
